A study of Homo sapiens with 4 samples.

Results

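Cytosolic heat shock chaperones are the proteins that fold, hold and refold other proteins in the cytosol and nucleus. This account covers 10 of their genes, which were chosen by name as the rows HSPA1A, HSPA1B, HSPA8, HSPH1, BAG3, DNAJB1, DNAJA1, HSPB1, CRYAB and HSP90AA1 of the count table. The table holds 63241 genes. All 10 members were found in it, and 8 of them reached 1 CPM (counts per 1000000 counts, scaled between libraries) in at least 1 library, as did 16099 genes in all. HSPA1A and CRYAB stayed below that level in every library.

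RNA was sequenced from LX-2, an established human cell line derived from hepatic stellate cells, which produce collagen in the scarred liver. All cells had first been starved for 24 h in medium with 0.5% serum. The groups were TGF-β with the compound BDS4, TGF-β with RVX-208, TGF-β alone, and control cells without TGF-β. TGF-β was used at 20 ng/mL and each compound at 5 µM, for 24 h. DMSO is named for the library with TGF-β alone, while the vehicle of the control cells was not given in the sources used here. RVX-208 (apabetalone) inhibits BET bromodomain proteins, readers of acetylated histones, and prefers their second bromodomain (BD2). BDS4 is a code name, from a study of covalent inhibitors of the first BET bromodomain (BD1). The table's header does not spell out BDS4, and its column was assigned by the name in the sample's description.

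There was 1 library in each of the 4 groups, so no difference below could be set against the variation between cultures, and no test was run. A gene is called higher or lower where its scaled counts differ at least 2-fold between 2 libraries and the 95% interval of the ratio leaves out 1. That interval covers counting error only. Counts per library totalled 21618509 with BDS4, 17022369 with RVX-208, 21860122 with TGF-β alone and 22503094 in the control. The stellate and mesenchymal markers VIM and COL1A1 were expressed in all 4 libraries, whereas the stellate marker LRAT had 0 counts in each, which allows up to 0.147 CPM with BDS4, 0.178 CPM with RVX-208, 0.136 CPM with TGF-β and 0.126 CPM in the control. Of the 10 genes on the stellate and mesenchymal list, 5 reached 1 CPM with BDS4, 6 with RVX-208, 7 with TGF-β and 7 in the control. Of 6 hepatocyte markers, 1 (SERPINA1) reached 1 CPM. Of 5 cholangiocyte and epithelial markers, 3 (KRT18, SOX9 and KRT7) reached 1 CPM in every library, while KRT19 and EPCAM did not. That list summed to 135 CPM with BDS4, 350 CPM with RVX-208, 557 CPM with TGF-β and 287 CPM in the control. Of 4 endothelial markers, 1 reached 1 CPM with BDS4 and 2 in each other library, with sums of 6.16 to 11.8 CPM, and of 5 macrophage and leukocyte markers 3 did with BDS4 and 2 in each other library, with sums of 11.6 to 35.0 CPM. The BDS4 library stood apart from the others in RNA composition: mitochondrial ribosomal RNA made up 0.903% of its counts, against 0.230% with RVX-208, 0.248% with TGF-β and 0.212% in the control. Its nuclear long noncoding RNA NEAT1 stood at 968 CPM, against 127 CPM with RVX-208, 60.6 CPM with TGF-β and 66.8 CPM in the control. MALAT1, another such RNA, did not set the BDS4 library apart. It stood at 69.0 CPM with BDS4, 69.1 CPM with RVX-208, 24.4 CPM with TGF-β and 40.9 CPM in the control. The mitochondrial ribosomal RNA and NEAT1 values move with every BDS4 difference below, and their part in those differences was not tested.

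HSP70 proteins bind exposed hydrophobic stretches of unfolded proteins and release them in a cycle driven by ATP. J-domain proteins of the DNAJ family bring clients to HSP70 and trigger ATP hydrolysis, and exchange factors of the HSP110 and BAG families then release ADP and the client. Small heat shock proteins hold unfolding proteins without using ATP, and HSP90 acts later, on partly folded clients such as kinases and steroid receptors. When unfolded proteins accumulate, heat shock factor 1 (HSF1) binds heat shock elements, inverted repeats of the unit GAA, in front of many of these genes and raises their transcription. HSPA8 and DNAJA1 are known as the steadily expressed, or cognate, members of their families, and HSPA1A, HSPA1B and DNAJB1 as strongly heat-inducible ones. In rat stellate cells, αB-crystallin, the product of Cryab, is known to appear as the cells activate in culture.

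The promoters of the members were searched for heat shock elements, because this is the sequence feature that the textbook account of these genes turns on. The windows came from RefSeq (GRCh38.p14) and ran from 250 bases before to 50 bases after each annotated start. They were found for 9 of the 10 members, the exception being CRYAB, and numbered 12 because DNAJB1 has 3 annotated starts and HSP90AA1 has 2. The forms searched were the 2-unit repeats GAANNTTC and TTCNNGAA, each of which is its own reverse complement, and the 3-unit repeats, namely GAANNTTC followed by NNGAA and TTCNNGAA followed by NNTTC, which are reverse complements of each other and contain both 2-unit forms. Both strands are therefore covered.

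A 2-unit form lay in at least 1 window of 7 of the 9 members. Counted by window, it lay in 8 of the members' 12 windows and in 13.5% of all 35116 windows. A 3-unit form lay in the windows of 3 members, HSPA8, DNAJA1 and HSP90AA1. By window, these were 3 of the members' 12, against 0.490% of all windows. HSPH1 and BAG3 had no match to these letters in their windows. HSPA8 had 2 separate 3-unit matches, beginning 230 and 55 bases before its start. HSP90AA1 had its matches at 1 of its starts, on chromosome 14 at position 102087044, and none at the other, at position 102139749. DNAJB1 had 2 matches before the start at position 14518397 of chromosome 19, none at its start at 14529271, and 1 just after its start at 14517937. A match is a run of letters and does not show that a factor binds there.

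The sequences below are those of the members whose counts differed most between libraries, with HSPA1A beside its near-copy HSPA1B and HSPA8 as the member with the most matches. They are written 5′ to 3′ in the direction of transcription, with matches in capitals, and exclude bases that GENCODE 29 places in an exon of the gene. The DNAJB1 stretch is chr19:14518421-14518647 (minus strand), that of HSPA1A is chr6:31815293-31815463 (plus strand), that of HSPA1B is chr6:31827488-31827734 (plus strand), that of HSPB1 is chr7:76302423-76302543 (plus strand) and that of HSPA8 is chr11:123062336-123062386 (minus strand).
DNAJB1: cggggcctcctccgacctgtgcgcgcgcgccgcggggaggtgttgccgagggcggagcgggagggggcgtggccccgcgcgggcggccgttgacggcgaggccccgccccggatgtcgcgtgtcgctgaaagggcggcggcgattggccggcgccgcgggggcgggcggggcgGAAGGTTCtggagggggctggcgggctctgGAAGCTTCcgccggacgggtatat
HSPA1A: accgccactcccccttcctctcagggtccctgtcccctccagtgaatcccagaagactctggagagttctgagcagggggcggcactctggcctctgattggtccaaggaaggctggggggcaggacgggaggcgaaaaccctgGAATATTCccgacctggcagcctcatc
HSPA1B: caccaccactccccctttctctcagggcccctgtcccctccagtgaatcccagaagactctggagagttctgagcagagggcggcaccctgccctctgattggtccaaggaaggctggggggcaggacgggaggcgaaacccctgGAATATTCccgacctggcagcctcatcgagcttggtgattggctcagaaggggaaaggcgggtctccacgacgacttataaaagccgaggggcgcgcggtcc
HSPB1: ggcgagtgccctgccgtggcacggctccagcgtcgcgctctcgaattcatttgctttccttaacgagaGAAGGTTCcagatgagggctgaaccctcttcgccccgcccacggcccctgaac
HSPA8: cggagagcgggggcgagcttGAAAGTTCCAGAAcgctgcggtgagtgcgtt
For the second HSPA8 match and for the HSP90AA1 matches, GENCODE 29 has transcripts that begin farther upstream, so the elements lie within an annotated exon and are shown alone. They are chr11:123062171-123062199 and chr14:102087104-102087133, both on the minus strand.
HSPA8 element: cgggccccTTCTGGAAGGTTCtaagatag
HSP90AA1 element: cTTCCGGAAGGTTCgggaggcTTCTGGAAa
The 250 bases before the starts of HSPA1A and HSPA1B were 93.6% identical over 251 aligned positions, and both hold the same 8 letters, GAATATTC, beginning 106 bases before the start of HSPA1A and 105 before that of HSPA1B. DNAJB1 and HSPB1 each hold GAAGGTTC, beginning 77 and 182 bases before their starts. DNAJB1 also holds GAAGCTTC, beginning 47 bases before the same start. DNAJB1 and HSPB1 moved in opposite directions in the BDS4 library, as described below, and any part of these matches in that was not tested.

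**Figure D1:**
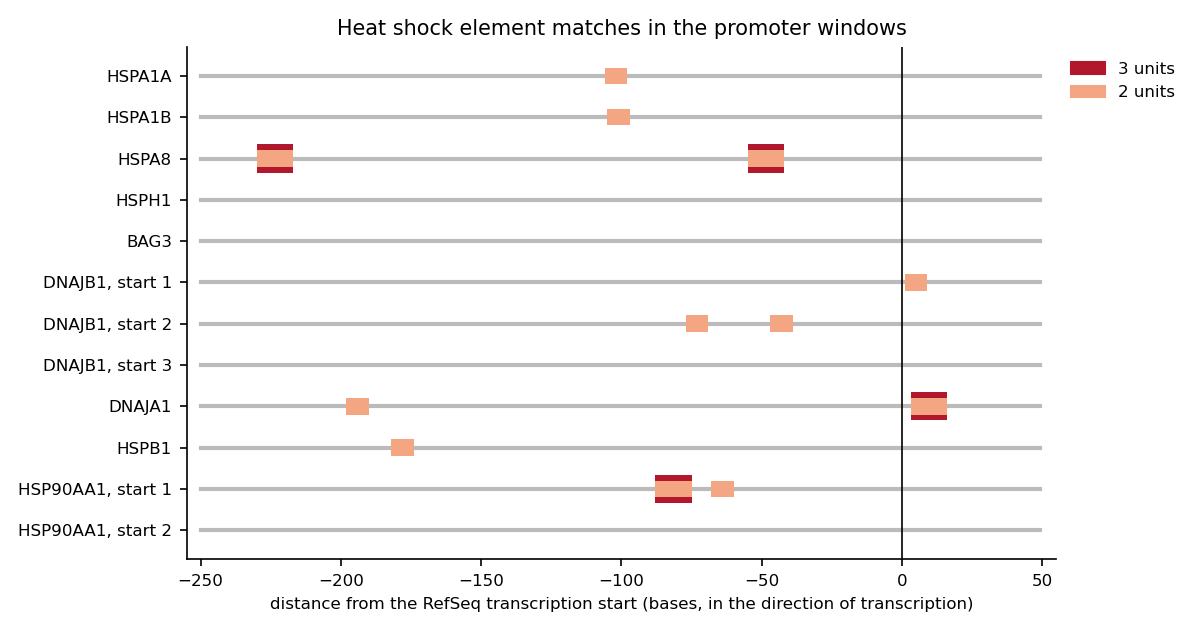
Positions of heat shock element matches in the 12 RefSeq windows of 9 members, by distance in bases from the annotated transcription start (0, vertical line), with starts of DNAJB1 and HSP90AA1 numbered by rising chromosome position. Tall dark boxes are 3-unit matches, which 3 members have, light boxes are 2-unit matches, and HSPH1 and BAG3 have none.

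Summed over the 10 members, chaperone RNA was higher with BDS4 than in any other library, although HSPB1 was lowest there. The 10 members together took 0.780% of all counts with BDS4, against 0.436% with RVX-208, 0.428% with TGF-β and 0.471% in the control. Summed over the members, scaled counts with BDS4 were 1.95-fold (1.94 to 1.97) those with TGF-β alone. HSPA8 and HSP90AA1 supplied most of this sum, so the members are taken one by one below. In bulk RNA, fewer expressing cells and less RNA per cell cannot be told apart.

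**Figure D2:**
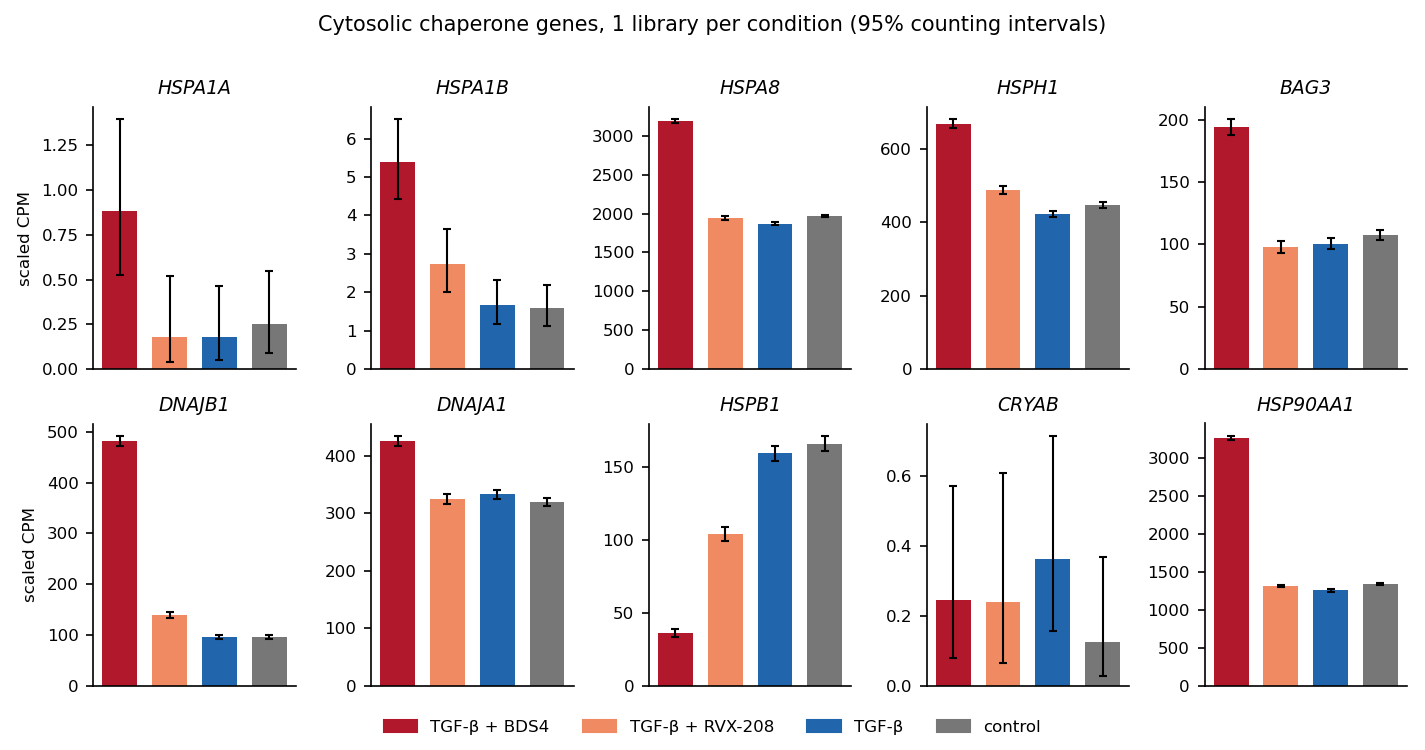
Scaled CPM of each member in the 4 libraries, with each panel on its own axis from 0; bars are single libraries and whiskers 95% Poisson counting intervals. With BDS4, 8 members are at their highest and HSPB1 is at its lowest, while CRYAB rests on 3 to 8 counts per library.

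With BDS4 against TGF-β alone, 3 members (DNAJB1, HSPA1B and HSP90AA1) were called higher and 1 (HSPB1) was called lower among the 8 that could be tested. Over all 16099 genes, the rule called 14.5% higher and 17.7% lower in this comparison, and 32.2% in either direction. A call by itself was therefore common. The median log2 ratio of the 8 members was 0.86, against -0.01 over all genes tested, and the ratio lay above 0 for 7 of the 8. The intervals of those 7 left out 0 on the upper side, and that of HSPB1 left it out on the lower side. At high counts such intervals are narrow, and even the 1.28-fold ratio of DNAJA1 had one that left out 1. The share of all genes with such intervals was not determined, so these counts are not a result about the members.

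Among the HSP70 genes, HSPA8, the constitutive HSC70, had 3186 CPM with BDS4, 1945 CPM with RVX-208, 1867 CPM with TGF-β and 1970 CPM in the control. It was thus high with BDS4 and close to the TGF-β level in the other libraries. The BDS4 level was 1.71-fold (1.69 to 1.73) that with TGF-β, below the 2-fold rule. HSPA1B, which encodes inducible HSP70, had 110 counts with BDS4, 46 with RVX-208, 37 with TGF-β and 38 in the control. In scaled units it stood at 5.39 CPM with BDS4, 2.73 CPM with RVX-208, 1.68 CPM with TGF-β and 1.59 CPM in the control. The BDS4 value was 3.22-fold (2.20 to 4.81) that with TGF-β, and the Poisson interval of the BDS4 library did not overlap those of the other 3. A noncoding transcript that overlaps 36.5% of the HSPA1B exons on the same strand had 0 counts in every library. In GRCh38, GENCODE 29 places HSPA1B at chr6:31827735-31830255 on the plus strand.

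HSPA1A, on chromosome 6 beside HSPA1B and with a near-identical coding sequence, had 18 counts with BDS4, 3 with RVX-208, 4 with TGF-β and 6 in the control. It was again highest with BDS4, at 4.87-fold (1.60 to 19.8) the TGF-β value, but it stayed below 1 CPM and was not tested. Of all 50-base words in the HSPA1A transcript, 72.6% also occur in that of HSPA1B, and 73.5% of those of HSPA1B occur in other genes, nearly all in HSPA1A. The treatment of reads that fit both was not given in the sources used here, so the split between the 2 genes is uncertain. Summed, they had 128 counts with BDS4, 49 with RVX-208, 41 with TGF-β and 44 in the control, a ratio of 3.38 (2.36 to 4.93) for BDS4 against TGF-β.

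The HSPA1A and HSPA1B rows, low themselves, lie in a region where a smaller share of genes reached 1 CPM than elsewhere. Within 1000000 bases of HSPA1A lie 97 protein-coding genes. Of these, 20 (20.6%) reached 1 CPM with BDS4, 24 (24.7%) with RVX-208, 26 (26.8%) with TGF-β and 25 (25.8%) in the control. Among the other protein-coding genes the share was 62.4% with BDS4, 62.3% with RVX-208, 62.8% with TGF-β and 63.0% in the control. The table also lists some subunits of obligate complexes near 1 CPM: CCT8 of the CCT chaperonin had 1.37 CPM with BDS4, 1.49 CPM with RVX-208, 1.09 CPM with TGF-β and 0.963 CPM in the control. The other 7 CCT subunits had at least 176 CPM in every library. Whether the rows of CCT8, HSPA1A and HSPA1B hold all of those genes' reads was not tested.

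Among the exchange factors, HSPH1, the HSP110 that recharges HSP70 and helps it to dissolve aggregates, had 668 CPM with BDS4, 486 CPM with RVX-208, 422 CPM with TGF-β and 447 CPM in the control. The BDS4 level was 1.58-fold (1.54 to 1.63) that with TGF-β. BAG3, which couples HSP70 to small heat shock proteins and to autophagy, had 194 CPM with BDS4, 98.0 CPM with RVX-208, 101 CPM with TGF-β and 107 CPM in the control. Its ratio of 1.93 (1.83 to 2.03) fell just short of the 2-fold rule, with an interval that takes in 2. Both genes were thus highest with BDS4 and neither was called. No 50-base word of HSPH1 or BAG3 occurs in another gene's transcript.

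The J-domain member DNAJB1 (HSP40; chr19:14514770-14529770, minus strand), the partner with which HSP70 breaks up aggregates, differed most of the tested members. It had 483 CPM with BDS4, 139 CPM with RVX-208, 96.2 CPM with TGF-β and 95.4 CPM in the control. The BDS4 library stood far above the rest, the RVX-208 library came next, and TGF-β and control overlapped within their counting intervals. With BDS4 the level was 5.01-fold (4.78 to 5.26) that with TGF-β, which placed DNAJB1 551st from the top among 16099 genes. TECR, which overlaps 211 bases of its exons on the opposite strand, had 138 CPM with BDS4, 122 CPM with RVX-208, 120 CPM with TGF-β and 94.9 CPM in the control. DNAJA1, the cognate type of J-domain protein, had 426 CPM with BDS4, 325 CPM with RVX-208, 333 CPM with TGF-β and 320 CPM in the control. Its ratio for BDS4 against TGF-β was 1.28 (1.24 to 1.32), the one nearest to 1 among the tested members.

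HSP90AA1 (chr14:102080738-102139699, minus strand), the stress-inducible cytosolic HSP90, had 3268 CPM with BDS4, 1312 CPM with RVX-208, 1254 CPM with TGF-β and 1335 CPM in the control. The BDS4 level was 2.61-fold (2.57 to 2.64) that with TGF-β, and the other 3 libraries lay close together. Of its 50-base words, 18.2% occur in other genes, most of these in the pseudogene HSP90AA2P.

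The small heat shock proteins went the other way or were not measurable. HSPB1 (HSP27; chr7:76302544-76304295, plus strand), which holds unfolding proteins and binds actin filaments, had 35.8 CPM with BDS4, 104 CPM with RVX-208, 159 CPM with TGF-β and 166 CPM in the control. It was lowest with BDS4, intermediate with RVX-208 and highest in the libraries without a compound, whose counting intervals overlap. With BDS4 it was 4.45-fold (4.11 to 4.83) lower than with TGF-β, which placed it 906th from the bottom among all genes tested. CRYAB had 5 counts with BDS4, 4 with RVX-208, 8 with TGF-β and 3 in the control, so no difference was detectable at this depth. The ratio for BDS4 against TGF-β was 0.677, with an interval of 0.174 to 2.35.

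**Figure D3:**
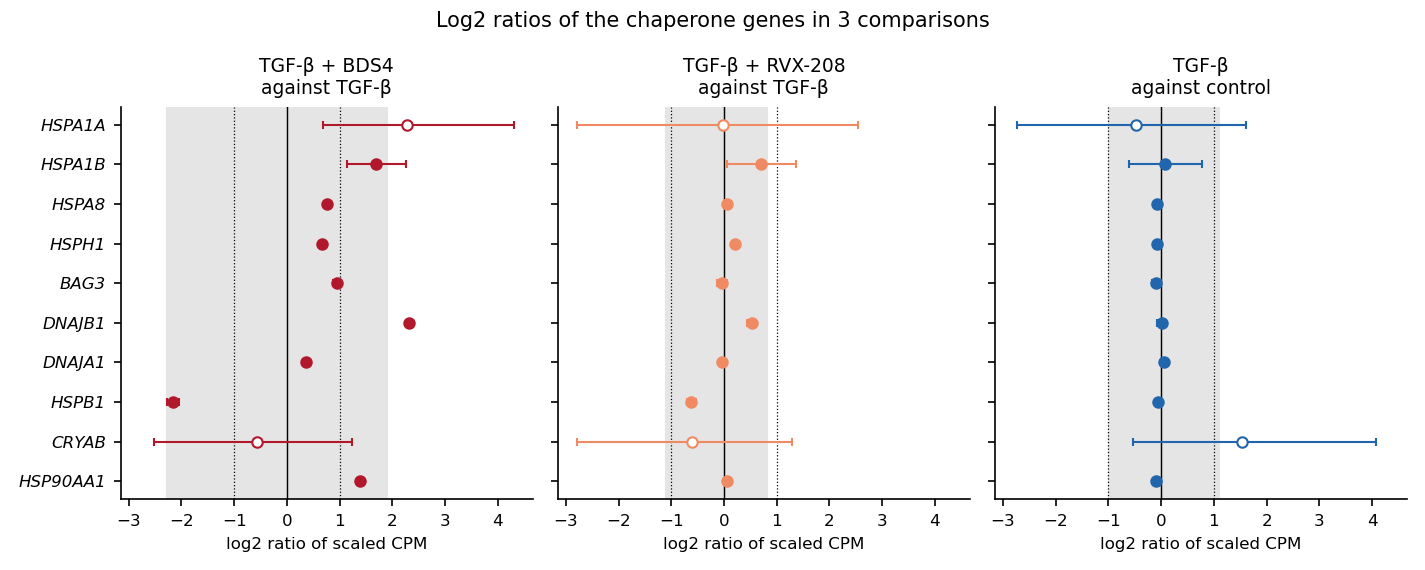
Log2 ratio of scaled CPM for each member in 3 comparisons, with 95% counting intervals; open circles are HSPA1A and CRYAB, which stayed below 1 CPM, dotted lines mark 2-fold and the grey band spans the 5th to 95th percentile of all 16099 genes. With BDS4, DNAJB1 (2.33) lies above the band and HSPB1 (-2.15) near its lower edge, and in the other panels no tested member passes 2-fold.

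Pairs of related genes, chosen after their values were seen, show how the composition of the chaperone RNA differed. HSP90AA1 had 1.64 (1.62 to 1.66) counts for each count of its constitutive counterpart HSP90AB1 with BDS4, against 0.683 with RVX-208, 0.681 with TGF-β and 0.704 in the control. HSP90AB1 itself had 1988 CPM with BDS4, 1919 CPM with RVX-208, 1841 CPM with TGF-β and 1896 CPM in the control, and was thus nearly level. DNAJB1 had 1.13 (1.10 to 1.17) counts for each count of DNAJA1 with BDS4, 0.426 with RVX-208, 0.289 with TGF-β and 0.298 in the control. HSPH1 had 1.70 (1.65 to 1.74) counts for each count of HSPA4, the other widely expressed HSP110, with BDS4, against 1.28 with RVX-208, 1.18 with TGF-β and 1.20 in the control. In each pair the ratio was highest with BDS4.

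Levels of different genes were compared as scaled CPM per 1000 bases of the gene's principal transcript in GENCODE 29. HSPA8 was the highest member in every library by this measure and HSP90AA1 the second. HSPA8 reached 1294 with BDS4, 790 with RVX-208, 758 with TGF-β and 800 in the control. DNAJB1 had rank 3 of 10 with BDS4, at 213 CPM per 1000 bases, and rank 6 in the other libraries, at 61.2 with RVX-208, 42.5 with TGF-β and 42.2 in the control. HSPB1 had rank 7 with BDS4, at 39.4 CPM per 1000 bases, rank 4 with RVX-208, at 114, and rank 3 with TGF-β, at 175, and in the control, at 183. In the libraries without a compound, DNAJB1 and its neighbour BAG3 (39.1 with TGF-β and 41.8 in the control) did not differ beyond their counting intervals. HSPA1A and CRYAB, at the foot of the order, did not differ beyond theirs in any library. The deposited FPKM values order the members differently, because they imply a length of 24275 bases for DNAJB1, where the principal transcript has 2264, and likewise long values for CRYAB, HSPB1 and HSPA8.

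With RVX-208 against TGF-β, 0 of the 8 tested members were called, where the rule called 8.19% of all genes, 2.94% higher and 5.25% lower. The median log2 ratio was 0.06 over the members and 0.00 over all genes. DNAJB1 was 1.44-fold (1.36 to 1.53) the TGF-β level, and HSPB1 was 1.54-fold (1.45 to 1.63) lower. HSPA1B had a ratio of 1.63 (1.03 to 2.59), resting on 46 counts against 37. HSPH1 stood at 1.15-fold (1.12 to 1.19), HSPA8 at 1.04-fold (1.03 to 1.06) and HSP90AA1 at 1.05-fold (1.03 to 1.06). The intervals of BAG3, at 0.974-fold, and DNAJA1, at 0.977-fold, took in 1. Both compound comparisons share the TGF-β library.

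Set against each other at the same dose and time, the 2 compounds form 1 pair, and neither comparison has a test across cultures. With BDS4 against RVX-208, DNAJB1 and HSP90AA1 were called higher and HSPB1 lower among the 8 tested members, where the rule called 24.8% of all genes, 11.7% higher and 13.1% lower. DNAJB1 was 3.48-fold (3.33 to 3.65) the RVX-208 level and HSP90AA1 2.49-fold (2.45 to 2.53), while HSPB1 was 2.90-fold (2.66 to 3.16) lower. BAG3, at 1.98-fold (1.87 to 2.10), and HSPA1B, at 1.97-fold (1.39 to 2.85), lay just under the 2-fold rule with intervals that take in 2. HSPA1A and HSPA1B summed passed it, at 2.16-fold (1.54 to 3.06). HSPA8 stood at 1.64-fold (1.62 to 1.66), HSPH1 at 1.37-fold (1.34 to 1.41) and DNAJA1 at 1.31-fold (1.27 to 1.35).

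TGF-β alone left these genes close to the control. Of the 8 tested members, 0 were called with TGF-β against control, where the rule called 9.68% of all genes, 5.32% higher and 4.37% lower. Their log2 ratios ran between -0.10 and 0.07, with a median of -0.07 against -0.01 over all genes. DNAJB1 was at 1.01-fold (0.950 to 1.07) the control level, and HSPB1 at 0.960-fold, with an interval that takes in 1. The log2 ratio of HSP90AA1 was -0.09 (-0.11 to -0.07), that of HSPA8 -0.08 (-0.10 to -0.06), that of HSPH1 -0.08 (-0.12 to -0.04) and that of BAG3 -0.10 (-0.18 to -0.01), all below 0 by more than the counting error. That of DNAJA1 was above 0 by more than it, at 0.06 (0.01 to 0.10). Scaling by total counts in place of TMM factors would shift every log2 ratio of this comparison by -0.07, about as much as these differences.

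With BDS4 against control, DNAJB1, HSPA1B and HSP90AA1 were called higher and HSPB1 lower among the 8 tested members, where the rule called 33.1% of all genes, 14.9% higher and 18.2% lower. DNAJB1 was 5.06-fold (4.83 to 5.30) the control level and HSPB1 4.64-fold (4.29 to 5.03) lower. With RVX-208 against control, 0 of 8 were called, where the rule called 12.3% of all genes, 5.39% higher and 6.88% lower. DNAJB1 was 1.45-fold (1.37 to 1.54) the control level there, and HSPB1 1.60-fold (1.51 to 1.69) lower. These comparisons share libraries with those above.

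The wider chaperone network was followed in 12 lists, which hold 138 distinct genes outside the members. The lists were written with earlier results of these data known. Of these, 125 could be tested. With BDS4 against TGF-β, 13 of the 125 (10.4%) were called higher and 6 lower, against 14.5% and 17.7% of all genes, and their median log2 ratio was 0.18. Scaled by total counts, 12 were higher and 9 lower. With RVX-208 against TGF-β, 1 (0.8%) was called higher and 0 lower, against 2.94% and 5.25% of all genes. With TGF-β against control, 0 were called higher and 1 (0.8%) lower, against 5.32% and 4.37% of all genes. The gene called with RVX-208 was DNAJB5, a J-domain protein, at 23.3 CPM against 11.4 CPM with TGF-β (2.05-fold, 1.74 to 2.41). The gene called with TGF-β was SYNPO2, at 2.13 CPM with TGF-β against 6.32 CPM in the control. Some genes stand in more than 1 list. The counts of single lists below are for BDS4 against TGF-β unless another comparison is named. They are to be read beside the 14.5% of all genes called higher and 17.7% called lower there.

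**Figure D4:**
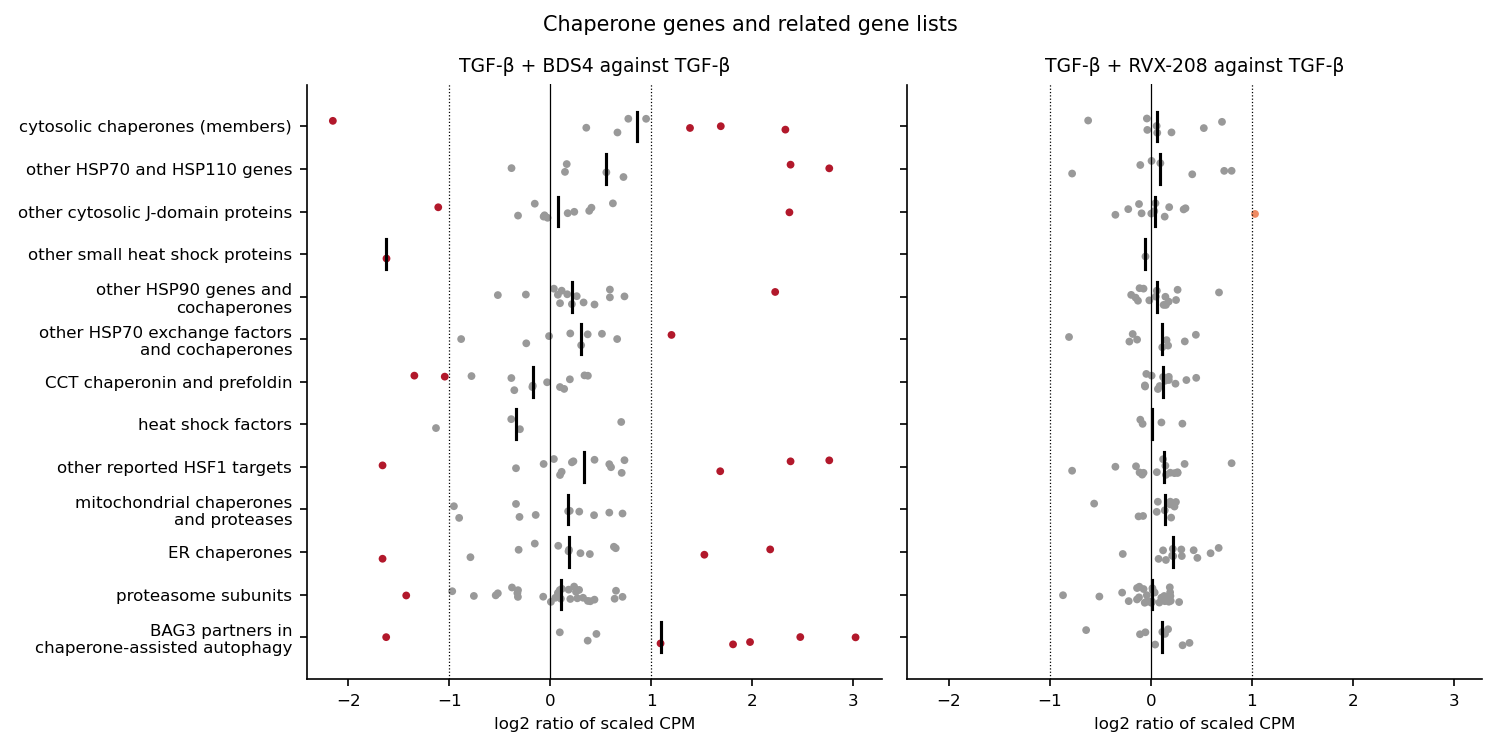
Log2 ratio of scaled CPM for the tested genes of the members and of 12 related lists, with BDS4 (left) and RVX-208 (right) against TGF-β; points are genes, coloured where called, bars are medians and dotted lines mark 2-fold. With BDS4 the members (median 0.86) and the BAG3 partners (median 1.09) lie farthest to the right, and with RVX-208 a single point, DNAJB5, passes 2-fold. Members and lists were chosen with earlier results of these data known, so this order is a description only.

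Among 7 tested HSP70 and HSP110 genes outside the members, 2 were called higher and 0 lower with BDS4 against TGF-β (median log2 ratio 0.55). HSPA6, an HSP70 that is nearly silent in unstressed cells and has a near-identical pseudogene, HSPA7, with which it can share reads, had 169 counts with BDS4, 12 with RVX-208, 27 with TGF-β and 24 in the control. The ratio was 6.78 (4.50 to 10.6). HSPA4L, of the HSP110 family, had 150 CPM with BDS4, 50.3 CPM with RVX-208, 28.8 CPM with TGF-β and 51.7 CPM in the control, a ratio of 5.20 (4.77 to 5.67). The tested genes with the next largest ratios, HSPA13 at 1.65-fold and HSPA2 at 1.47-fold, were not called.

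Of 12 tested cytosolic J-domain genes, 1 was called higher and 1 lower (median 0.07). DNAJC6, the clathrin-uncoating factor auxilin, had 89.2 CPM with BDS4 against 17.3 CPM with TGF-β (5.16-fold, 4.61 to 5.77). DNAJC7, a cochaperone that passes clients between HSP70 and HSP90, had 61.6 CPM against 133 CPM, 2.16-fold (2.02 to 2.31) lower. The list of other small heat shock genes had 1 tested gene, HSPB8, the partner of BAG3. It had 3.43 CPM with BDS4, 10.2 CPM with RVX-208, 10.6 CPM with TGF-β and 14.2 CPM in the control, so it was 3.09-fold (2.35 to 4.09) lower with BDS4 than with TGF-β. HSPB1 and HSPB8 were thus the measurable small heat shock genes, and both were called lower.

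Of 15 tested HSP90 genes and cochaperones, 1 was called higher and 0 lower (median 0.21). It was FKBP5, a steroid receptor cochaperone induced by glucocorticoids, at 424 CPM with BDS4, 145 CPM with RVX-208, 90.8 CPM with TGF-β and 119 CPM in the control (4.68-fold, 4.45 to 4.91, for BDS4 against TGF-β). CHORDC1 at 1.66-fold, SUGT1 (log2 ratio 0.59) and PTGES3 (p23, 0.59) were not called. Of 9 other exchange factors and HSP70 cochaperones, 1 was called higher and 0 lower (median 0.30). It was BAG2, at 88.6 CPM with BDS4 against 38.6 CPM with TGF-β (2.30-fold, 2.11 to 2.49). HSPBP1, an exchange factor, was 1.85-fold lower and not called.

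Of 9 partners of BAG3 in chaperone-assisted autophagy, 5 were called higher and 1 lower (median 1.09). SQSTM1 (p62), the receptor that carries ubiquitinated cargo, had 2972 CPM with BDS4, 340 CPM with RVX-208, 366 CPM with TGF-β and 270 CPM in the control, a ratio of 8.12 (7.93 to 8.31) for BDS4 against TGF-β. FLNC, the actin crosslinker filamin C and a client of BAG3, had 6262 CPM with BDS4 against 1127 CPM with TGF-β, a ratio of 5.55 (5.48 to 5.63). MAP1LC3B, which coats autophagosomes, stood at 3.93-fold (3.72 to 4.16). SYNPO2, which links BAG3 to autophagosome membranes, stood at 3.50-fold (2.51 to 4.97). The other higher gene was LAMP2, a lysosomal membrane protein, at 2.13-fold (2.04 to 2.22), and the lower one was HSPB8. With BDS4 against control, 3 of the 9 were called higher and HSPB8 lower. SYNPO2, at 7.45 CPM with BDS4 against 6.32 CPM in the control, and LAMP2, at 1.94-fold (1.87 to 2.02), were not called there.

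Of the lists nearest to HSF1, that of reported HSF1 targets outside the members had 16 tested genes. Among them, 3 were called higher and 1 lower (median 0.33), where the rule called 14.5% of all genes higher and 17.7% lower. HSPA6 and HSPA4L, described above, were among the higher ones. The lower one was SERPINH1 (HSP47), the collagen chaperone of the endoplasmic reticulum, at 41.8 CPM with BDS4, 144 CPM with RVX-208, 132 CPM with TGF-β and 251 CPM in the control, 3.17-fold (2.93 to 3.42) lower with BDS4 than with TGF-β. Of the list, 12 genes also stand in another list. None of the 4 genes for heat shock factors and their binding protein was called with BDS4 against TGF-β, where 32.2% of all genes were. HSF2 had 31.1 CPM with BDS4 against 19.2 CPM with TGF-β (1.63-fold), while HSF1 had 8 counts with BDS4, 18 with RVX-208, 19 with TGF-β and 19 in the control. HSF1 reached 1 CPM only with RVX-208, at 1.07 CPM, against 0.392 CPM with BDS4, and so entered through the RVX-208 library alone. With BDS4, HSF1 was not called against TGF-β. The rule did call it lower against RVX-208, at 2.73-fold (1.13 to 7.24). That call sets BDS4 against the library that admitted the gene, on these few counts, and no conclusion is drawn from it. Whether the HSF1 row holds all of that gene's reads was not tested.

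The remaining lists cover other compartments and systems. Of 13 tested genes of the CCT chaperonin and prefoldin, 0 were called higher and 2 lower (median -0.18), PFDN1 at 2.54-fold and PFDN4 at 2.07-fold lower. Of 11 mitochondrial chaperones and proteases, 0 were called (median 0.18). CLPP, a matrix protease subunit, was 1.94-fold lower, LONP1 was 1.87-fold lower, and HSPA9, the mitochondrial HSP70, was at 1.64-fold. With BDS4 against control, 0 of the 11 were called higher and 2 lower, CLPP at 2.42-fold and LONP1 at 2.30-fold lower. The rule called 14.9% of all genes higher and 18.2% lower in that comparison. Of 13 chaperones of the endoplasmic reticulum, 2 were called higher, DNAJB9 at 4.52-fold (4.07 to 5.02) and DNAJC3 at 2.88-fold (2.76 to 3.00), and 1 lower, SERPINH1 (median 0.18). Of 29 proteasome subunits, 0 were called higher and 1 lower, PSMB6 at 2.69-fold lower (median 0.10).

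The genes whose pattern over the 4 libraries lay closest to that of DNAJB1 were CDK19, PYGM and SRXN1, by the distance between log2 CPM profiles, each centred on its mean, among 10895 genes. Their distances were 0.033, 0.086 and 0.096. Genes entered with at least 10 CPM in at least 1 library, and PYGM passed this filter only through the BDS4 library, where it is high (10.7 CPM). SRXN1, which encodes sulfiredoxin, had 536 CPM with BDS4, 143 CPM with RVX-208, 99.2 CPM with TGF-β and 97.6 CPM in the control. The genes closest to HSPB1 were GNG2, LZTS2 and MCM5, with distances of 0.077, 0.083 and 0.088. MCM5, a subunit of the replicative helicase, had 51.7 CPM with BDS4, 151 CPM with RVX-208, 245 CPM with TGF-β and 256 CPM in the control. With 4 libraries, such likeness is a description of these libraries only.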

How the data were processed

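Total counts per library and all gene counts are those the authors deposited: raw whole-number counts per gene, beside FPKM values that, per the series' design text, were made by the authors with StringTie 1.3.0. Per the submitters' processing notes, reads were base-called with CASAVA 1.8 and aligned to GRCh38 with TopHat2 2.0.6. A stranded, paired-end mRNA kit is stated in the design text. The program used for counting, its annotation and whether it used strand were not given in the sources used here. Genes with at least 1 unscaled CPM in at least 1 library entered TMM scaling (edgeR 4.0.16, R 4.3.3), with factors of 0.943 (BDS4), 0.989 (RVX-208), 1.01 (TGF-β) and 1.06 (control), and 16099 genes with at least 1 scaled CPM in at least 1 library were compared. Ratios carry 95% conditional exact (Clopper-Pearson) intervals and levels exact Poisson intervals; intervals and the floor of 3 counts cover counting error only. The steps ran in Python 3.11.15 with scipy 1.17.1. The rule was checked on simulated Poisson counts, which hold no variation between cultures, so that check does not bear on such variation. No replicate libraries exist here, so no test across samples was run.

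The members, the lists and the rules were chosen with earlier results of these data known. The text names all 10 members, up to 4 genes per list with the largest absolute log2 ratio in the comparison described, and the 3 profiles nearest to DNAJB1 and to HSPB1. HSP90AB1, HSPA4, LAMP2, CCT8 and HSF1 are named besides, after their values were seen. FPKM had been planned as the scale between genes. It equals count over total and length with 1 length per gene (to 0.000417% over 9069 genes), but those lengths are far from the principal transcripts, so CPM per 1000 bases took its place. Alternatives were DESeq2 1.42.0 size factors, other scalings, folds, filters and row sums. Values of some genes in the lists are not reported here.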

Additional observations from a re-analysis of the deposited data

How the results depend on the processing

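The counts of members called were recomputed under 11 alternatives in each of 6 comparisons, and 60 of these 66 counts stayed within 1.5 times the reported one. With a 1.5-fold rule, 7 members were called with BDS4 against TGF-β (BAG3, HSPA8 and HSPH1 added), 2 with RVX-208 against TGF-β and 2 with RVX-208 against control (HSPA1B and HSPB1 in both), and 6 with BDS4 against RVX-208. With a 3-fold rule, 1 was called with BDS4 against RVX-208. With DESeq2 size factors, 5 were called there, since BAG3 and HSPA1B, at 1.98-fold and 1.97-fold, passed 2-fold. Of 360 log2 ratios of single members, 276 stayed within their counting interval. Of 42 medians, 29 stayed between the median lower bound and the median upper bound of the tested members' intervals. For the 125 list genes, alternatives chosen after the data were seen kept all counts within 1.5 times under another scaling or without mitochondrial genes. With a 1.5-fold and a 3-fold rule the list genes called numbered 41 and 12 for BDS4 against TGF-β (19 at 2-fold), 34 and 9 for BDS4 against RVX-208 (19), 42 and 11 for BDS4 against control (18), 8 and 0 for RVX-208 against TGF-β (1), 14 and 1 for RVX-208 against control (2), and 10 and 0 for TGF-β against control (1). No called log2 ratio of a member changed sign under another scaling, the mitochondrial genes left out, the pseudogene rows added or the deposited FPKM. Scaling by total counts shifted all log2 ratios by -0.10 for BDS4 against TGF-β and by -0.17 for BDS4 against control. No paired analysis was possible because each group has 1 library. Depth limits HSPA1A, HSPA1B and CRYAB, with 3 to 110 counts per library.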
